A study of Bos taurus with 44 samples.

Results

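Caruncular endometrium of cattle that had received an embryo fertilised in vitro (IVF-ET, in vitro fertilisation and embryo transfer) was compared with that of cattle bred by artificial insemination (AI). The members are the 10 arrays, of 44 in the series, whose labels give the area as caruncular and set an IVF-ET animal against an AI animal. Each array held RNA of 1 animal in Cy3 and of another in Cy5. The arrays form a closed loop of 5 IVF-ET and 5 AI animals, each hybridised once in each dye, so that the animal is the replicate. The labels name the AI animals of this loop IAT and the IVF-ET animals FIV. Neither the labels nor the files give breed, age, stage of pregnancy or the source of the embryos, and the caruncular arrays of this comparison hold no animals that were not inseminated or given an embryo. The animals are numbered 1 to 5 within each group.

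Caruncles are the raised parts of the ruminant uterine lining to which the placenta attaches, and they are richer in stroma and poorer in glands than the intercaruncular lining between them. Around attachment, the trophoblast of the embryo secretes interferon tau, which keeps the corpus luteum alive by holding down the oxytocin receptor and which switches on a large set of interferon-stimulated genes in the endometrium. Trophoblast binucleate cells make pregnancy-associated glycoproteins (PAGs) and prolactin-related proteins, and these cells fuse with the uterine epithelium once attachment begins. The comparison asks how the endometrium differs between IVF-ET and AI. The way the embryo was made and its transfer to the recipient go together in these groups and cannot be told apart.

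The measurement is a log2 ratio between the dyes, turned here so that a positive value is higher in IVF-ET than in AI. No label says which dye is divided by which. That Cy5 stands over Cy3 is the likely reading, taken from 20 intercaruncular arrays of the series that set AI animals or animals given cloned embryos (SCNT) against animals labelled CJ (glossed there as cycle). On these, the interferon-stimulated genes ISG15, MX1, MX2 and RSAD2 lay 2.67 to 4.32 higher than in the CJ animals on the log2 scale, on 17 or 18 of the 20 arrays, and OXTR lay at -3.07, lower on all 20. Under the other reading every sign below turns. Because the loop has as many ratios as unknowns, the 10 arrays also give each animal a log2 level against the mean of the 10 animals, which is the value per animal printed below. From the scatter between the 2 spots of a probe, such a value has a median error of 0.0881. This covers only the scatter between adjacent spots and leaves out any error of an array that both spots share.

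One array stood apart. The SD of the probes' log2 ratios was 0.221 to 0.307 on 9 arrays and 0.494 on the array of IVF-ET animal 3 in Cy5 against AI animal 5. On that array, 9 neighbouring windows of 12 probes each, in the order of the spots, had medians of -3.55 to -1.16, while over the same 108 probes the medians of the other 9 arrays were -0.37 to 0.06. The stretch held 76 of the 139 probes below -1.5 on that array. Results that rest on these probes are given with and without the array.

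**Figure D1:**
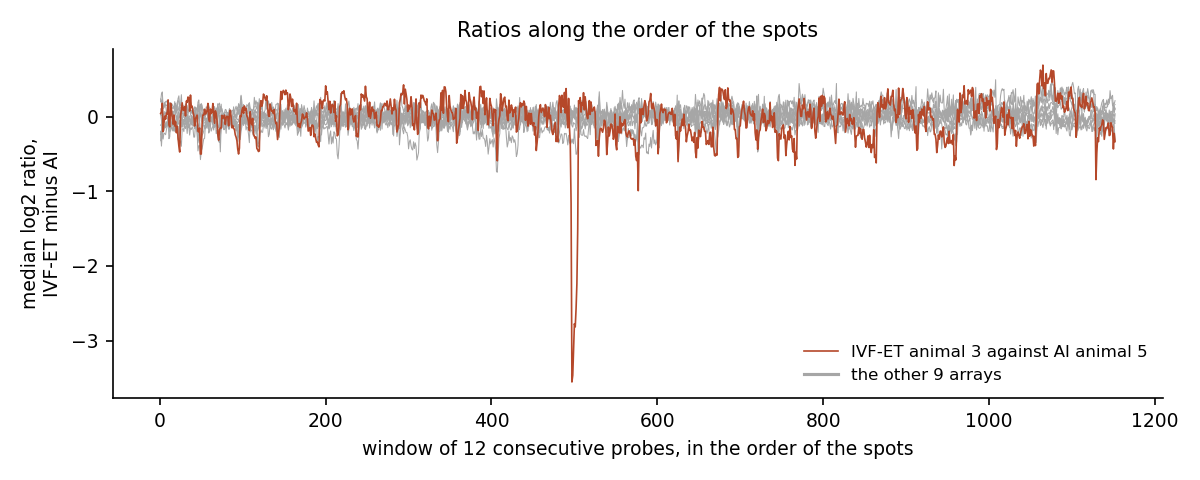
Median log2 ratio (IVF-ET minus AI) in windows of 12 consecutive probes, plotted along the order of the spots. The array of IVF-ET animal 3 against AI animal 5 is coloured and the other 9 arrays are grey. The coloured line drops to -3.55 in 1 stretch where no grey line goes below -0.75.

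Few probes separated the groups once all probes were counted. Of 13824 probes, 3 passed an adjusted p of 0.05 (0.0217%, limma with Benjamini-Hochberg adjustment over all probes), all 3 lower in IVF-ET and 0 higher. An unadjusted p under 0.05 was reached by 1279 probes (9.25%). The 8073 named genes had a median difference of -0.00 on the log2 scale, 43 of them differed by more than 0.5 and 2 by more than 1. Among these genes 462 lay higher (5.72%) and 311 lower (3.85%) at an unadjusted p under 0.05, and these shares are the background for the gene groups below. The labels name separate animals, so the p-values measure the spread between animals together with that of the arrays. All probes share 1 correlation, 0.125, between arrays with an animal in common. Where the animals of a gene differ more strongly than that, its SE and p can come out too small. With a correlation of 0.4, 443 probes had an unadjusted p under 0.05.

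ATP5F1C, the gamma subunit that turns inside the mitochondrial ATP synthase, was lower in IVF-ET. It stood at -0.43, -0.12, -0.36, -0.34 and -0.03 in IVF-ET animals 1 to 5 and at 0.03, 0.41, 0.06, 0.56 and 0.22 in AI animals 1 to 5. Every IVF-ET animal lay below every AI animal, although IVF-ET animal 5 and AI animal 1 nearly met. The difference was -0.51 ± 0.06 (log2, SE), or 1.43-fold lower, and it was negative on 10 of 10 arrays (adjusted p = 0.0223, limma).

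TGIF1, a homeodomain repressor that limits transcription in response to TGF-beta, was lower by a smaller step. Its values were -0.09, -0.17, -0.21, -0.21 and -0.14 in the IVF-ET animals and 0.03, 0.23, 0.18, 0.26 and 0.12 in the AI animals. The groups did not overlap, but the error of a TGIF1 animal value from its spots was 0.15, as large as the gap between the groups. The difference was -0.33 ± 0.04, or 1.26-fold lower (adjusted p = 0.0223, limma), and was negative on 8 of 10 arrays. TGIF1 also had a dye effect as large as the difference. The mean ratio was -0.67 over the 5 arrays with IVF-ET in Cy5 and 0.01 over the 5 with IVF-ET in Cy3. The probe next to it in the order of the spots, for PSPC1, had a like pattern, at -0.54 and 0.13. Whether the position on the slide plays a part in the TGIF1 difference was not tested.

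The remaining called probe has no gene symbol in the annotation supplied. It stood at -0.52, -0.15, -0.39, -0.24 and -0.02 in the IVF-ET animals and at 0.02, 0.35, 0.39, 0.55 and 0.02 in the AI animals. Here too the groups did not overlap, with IVF-ET animal 5 just under AI animals 1 and 5. The probe was 1.44-fold lower in IVF-ET, with a difference of -0.53 ± 0.07 and the same sign on 10 of 10 arrays (adjusted p = 0.0223, limma). Groups of animals that did not overlap were found for 32 of all 13824 probes (0.231%).

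None of the 3 calls was stable to the choice of libraries, although the differences themselves moved little. Without the array that stood apart, the adjusted p of all 3 was 0.0975 (limma). ATP5F1C ranged from -0.56 to -0.48 when 1 animal was left out in turn and TGIF1 from -0.35 to -0.31, and each stayed past the threshold in 1 of these 10 fits, the one without AI animal 1.

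**Figure D2:**
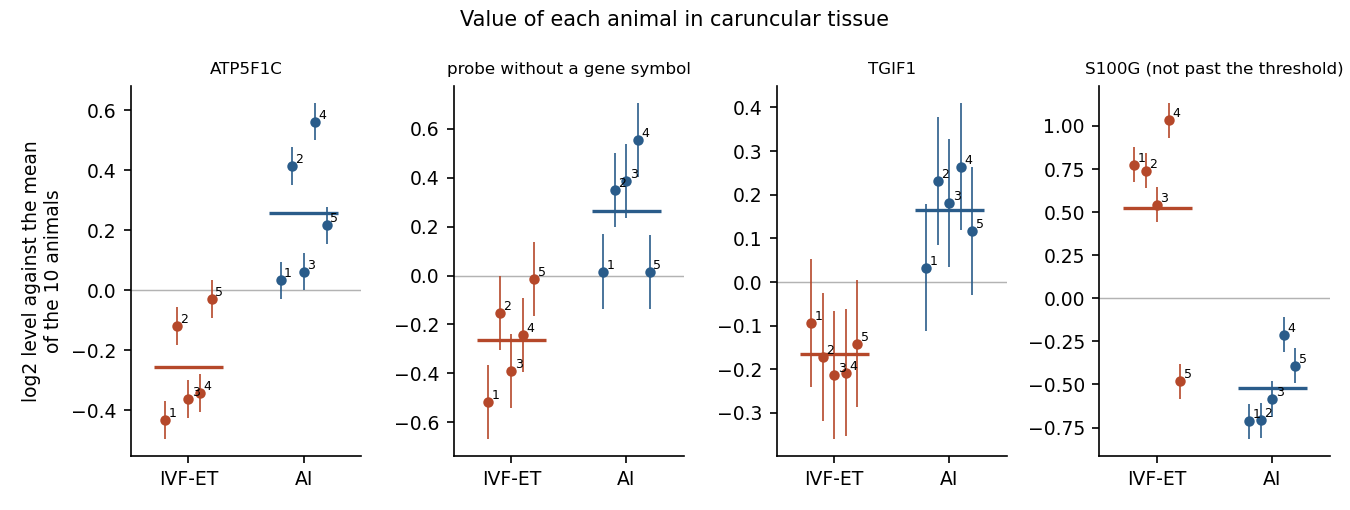
Log2 level of each animal against the mean of the 10 animals, for ATP5F1C, the called probe without a symbol, TGIF1 and S100G; points are animals, bars the error from the 2 spots of a probe, and lines the group means. In the first 3 panels every IVF-ET animal lies below every AI animal, and in the S100G panel IVF-ET animal 5, at -0.48, lies among the AI animals.

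The named genes with the next smallest p did not pass the threshold, with adjusted p of 0.226 to 0.25 (limma). TMSB10, which binds actin monomers, stood at 0.94, 0.65, 0.20, 0.31 and -0.41 in the IVF-ET animals and at -0.33, -0.83, -0.13, -0.48 and 0.07 in the AI animals. IVF-ET animals 1 to 4 lay above all AI animals and IVF-ET animal 5 among them, for a difference of 0.68 ± 0.13. IL18BP, a secreted protein that neutralises interleukin 18, stood at 0.11, 0.26, 0.39, 0.23 and 0.43 in the IVF-ET animals and at -0.48, -0.58, -0.40, -0.15 and 0.20 in the AI animals. AI animal 5 alone overlapped the IVF-ET animals, and the difference was 0.56 ± 0.10. It lay between 0.48 and 0.69 when 1 animal was left out in turn. It passed the threshold only without AI animal 5, the animal that overlaps (adjusted p = 0.0383, limma). Leaving out the animal that overlaps favours a small p, so this pass adds no support.

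CA2, a carbonic anhydrase, stood at -0.89, -0.04, -0.48, -0.33 and -0.10 in the IVF-ET animals and at -0.04, 1.05, -0.07, 0.93 and -0.03 in the AI animals. The difference of -0.74 ± 0.14 came with AI animals 2 and 4 near 1 and the other AI animals close to the upper IVF-ET animals. FTH1, the heavy chain of the iron store ferritin, stood at -0.06, 0.02, -0.18, -0.38 and -0.29 in the IVF-ET animals and at -0.25, 0.06, 0.44, 0.21 and 0.42 in the AI animals. AI animal 1 lay inside the IVF-ET range, and the difference was -0.35 ± 0.07. It lay between -0.44 and -0.30 when 1 animal was left out in turn. It passed the threshold only without AI animal 1, the animal that overlaps (adjusted p = 0.0427, limma), and this pass adds no support either.

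Of the other genes in this group, the lower ones were SDHD, a membrane anchor of respiratory complex II (-0.29), PRELID1, which carries phosphatidic acid inside mitochondria (-0.44), ITM2B (-0.35), the ubiquitin ligase RNF11 (-0.26), PCYT2, which acts in phosphatidylethanolamine synthesis (-0.25), and the paraspeckle protein PSPC1 (-0.21). The higher ones were CAV1, the coat protein of caveolae (0.35), MTCH1 of the mitochondrial outer membrane (0.35), the neutral amino acid transporter SLC43A1 (0.31), TMEM256 (0.25), the RNA polymerase subunit POLR2L (0.24), the endosomal syntaxin STX12 (0.23), PYCR1 of proline synthesis (0.21) and TOMM6 of the mitochondrial import pore (0.21). Of these 14 genes, SDHD and RNF11 were lower and TOMM6, PYCR1 and MTCH1 higher on 10 of 10 arrays. Over all probes, 0.441% had the same sign on 10 arrays. The 14 genes were chosen by their small p on the same arrays, which favours a constant sign, so these signs add no support. A second probe of PSPC1 gave 0.08. Some differences went with the dye. Mean ratios with IVF-ET in Cy5 and in Cy3 were 0.53 and 0.09 for SLC43A1. They were 0.43 and 0.07 for TMEM256 and 0.43 and 0.03 for STX12. POLR2L ratios were 0.31 to 0.70 in Cy5 and -0.10 to 0.18 in Cy3. ITM2B ratios were -1.05 to -0.36 and -0.13 to 0.24. PRELID1 (-0.42 and -0.46) and RNF11 (-0.31 and -0.22) were lower in both. With centring within runs of neighbouring probes SLC43A1 stood at 0.18. Any part of dye or position was not tested.

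S100G, the calcium-binding protein calbindin-D9k of uterine epithelium, was chosen after its values were seen. It stood at 0.77, 0.74, 0.54, 1.03 and -0.48 in the IVF-ET animals and at -0.71, -0.71, -0.58, -0.21 and -0.39 in the AI animals. IVF-ET animals 1 to 4 lay at least 0.54 above the mean of the 10 animals, while IVF-ET animal 5 was as low as the AI animals. The difference was 1.04 ± 0.19, or 2.06-fold higher (adjusted p = 0.229, limma). It lay between 0.87 and 1.31 when 1 animal was left out in turn. It passed the threshold only without IVF-ET animal 5, the animal that lies against it (adjusted p = 0.00324, limma). Leaving out such an animal favours a small p, so this pass adds no support. The other S100G probe, which stands for the gene under the rule used, gave -0.07.

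Genes of the trophoblast lay mostly higher in IVF-ET caruncles, though 0 of the 20 measured passed the threshold. The median difference was 0.31, 16 of 20 lay above 0, and 9 were higher and 2 lower at an unadjusted p under 0.05 (5.72% and 3.85% of named genes). On at least 8 arrays, 11 of 20 were higher, against 7.89% of named genes. The 20 include PTGS2 (0.00), which is also counted among the prostaglandin genes below. The genes in this and the later groups, apart from those named above and the receptors and serpin below, are named as examples chosen after their values were seen. For these examples a sign that is constant over the arrays adds no support either, and the arrays share animals.

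PRP1, a prolactin-related protein of binucleate cells, stood at 1.17, 1.19, 0.73, 1.35 and -1.39 in the IVF-ET animals and at -0.18, -1.13, -0.37, -1.59 and 0.21 in the AI animals. The first 4 IVF-ET animals exceeded all AI animals, and IVF-ET animal 5 was lower than every animal but AI animal 4. The difference was 1.22 ± 0.30 (2.33-fold, adjusted p = 0.352, limma), and it lay between 0.99 and 1.57 when 1 animal was left out in turn.

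The glycoprotein gene PAG19 followed the same animals, at 1.64, 1.18, 0.88, 1.16 and -1.93 in IVF-ET and -0.05, -0.997, -0.50, -1.79 and 0.40 in AI. Its difference was 1.17 ± 0.36 (adjusted p = 0.41, limma). PAG9 was higher in IVF-ET on 10 of 10 arrays, with IVF-ET values of 0.68, 0.10, 0.42, 1.42 and -0.30 and AI values of -0.27, -0.71, -1.03, -0.18 and -0.13. Here IVF-ET animal 4 was highest and AI animal 3 lowest, and IVF-ET animal 5 again lay among the AI animals (0.93 ± 0.22, adjusted p = 0.327, limma).

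Smaller differences were measured for the placental lactogen CSH2 (0.52 ± 0.19, and 0.28 without IVF-ET animal 2), PAG7 (0.40 ± 0.11), PAG6 (0.36 ± 0.13), PAG17 (0.32 ± 0.11), PAG18 (0.20 ± 0.06) and PAG4 (0.14 ± 0.06). A second PAG7 probe gave 0.90, and 2 further PAG17 probes gave 0.88 and 1.14. PAG genes are close in sequence, and a probe may bind RNA of several of them, so single members cannot be told apart with certainty. IFNT2, an interferon tau gene, stood at 0.34 ± 0.27 and the trophoblast Kunitz genes TKDP1 and TKDP4 at 0.26 ± 0.21 and 0.46 ± 0.27. CDX2, a transcription factor of the trophoblast lineage, stood at -0.10 ± 0.04, and SSLP1, a secreted protein of ruminant trophoblast, at -0.21 ± 0.07.

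The whole trophoblast list varied by animal as well as by group. Its median was 0.41, 0.12, 0.01, 0.13 and -0.27 in IVF-ET animals 1 to 5 and -0.04, -0.23, -0.05, -0.21 and 0.02 in AI animals 1 to 5. In IVF-ET animal 1, 19 of 20 members lay above the mean of the 10 animals, in IVF-ET animal 5 it was 3 and in AI animal 4 it was 2. The median difference was 0.16 without IVF-ET animal 1 and 0.41 without IVF-ET animal 5, and it was 0.35 without the array that stood apart, with 9 members still higher at an unadjusted p under 0.05. One member, PRP4, lies in the disturbed stretch of that array (0.72 with the array and 1.18 without it). Since the samples are pieces of tissue, more trophoblast cells in a sample and more RNA per cell cannot be told apart, and how much trophoblast each sample held was not tested.

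Interferon-stimulated genes lay mostly the other way. Of 26 measured, 24 were below 0 with a median of -0.17, 8 were lower and 0 higher at an unadjusted p under 0.05, and 0 passed the threshold. On at least 8 arrays, 10 of 26 were lower, against 6.34% of named genes.

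RSAD2, the antiviral enzyme viperin, stood at -0.26, -0.16, -0.55, -0.64 and 0.16 in the IVF-ET animals and at 0.84, 0.31, 0.18, 0.22 and -0.10 in the AI animals. IVF-ET animals 1 to 4 lay below all AI animals, and IVF-ET animal 5 overlapped them. The difference was -0.58 ± 0.15, or 1.49-fold lower, with the same sign on 10 of 10 arrays (adjusted p = 0.352, limma), and it lay between -0.70 and -0.37 when 1 animal was left out in turn.

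MX1, a GTPase that blocks viral replication, stood at -0.12, -0.39, 0.15, -0.56 and -0.07 in the IVF-ET animals and at 0.36, -0.06, 0.59, -0.26 and 0.36 in the AI animals. The groups overlapped, with a difference of -0.40 ± 0.12 (adjusted p = 0.399, limma), and its relative MX2 stood at -0.26 ± 0.11. IFI6, a mitochondrial survival protein, stood at -0.40, -0.11, -0.26, -0.26 and -0.01 in IVF-ET and at 0.14, -0.13, 0.27, 0.21 and 0.56 in AI, for a difference of -0.42 ± 0.10. AI animal 2 alone among the AI animals lay inside the IVF-ET range of IFI6.

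The ubiquitin-like modifier ISG15 itself differed by no more than its spread, at -0.67, 0.10, 0.01, -0.45 and 0.56 in the IVF-ET animals and 0.30, 0.20, -0.11, 0.17 and -0.12 in the AI animals (-0.18 ± 0.14, adjusted p = 0.714, limma). USP18, the protease that removes ISG15 from proteins, was lower on 10 of 10 arrays at -0.28 ± 0.07. IFIT5, which binds foreign RNA, stood at -0.37 ± 0.15 (-0.47 to -0.18 when 1 animal was left out), IRF9, the DNA-binding part of the interferon-activated complex ISGF3, at -0.27 ± 0.09, and HERC6 at -0.17 ± 0.06. OAS1 was not analysed here.

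Other immune genes lay on both sides. B2M, the light chain of MHC class I, was lower on 10 of 10 arrays (-0.40 ± 0.11, adjusted p = 0.384, limma), but the 15 class I presentation genes had a median of -0.01, with 1 higher and 1 lower at an unadjusted p under 0.05. The chemokine CXCL10 stood at -0.48 ± 0.21, and at -0.64 to -0.23 when 1 animal was left out in turn. TAP1, the peptide transporter, stood at -0.69 with all arrays and at -0.20 without the array that stood apart.

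By animal, the median of the interferon-stimulated genes was -0.17, -0.05, -0.11, -0.23 and 0.15 in IVF-ET animals 1 to 5 and 0.30, 0.06, 0.10, 0.08 and -0.10 in AI animals 1 to 5. IVF-ET animal 5 and AI animal 5 thus each lay on the side of the other group. AI animal 1 was the highest of the 10 animals for 12 of the 26 genes, and IVF-ET animal 4 the lowest for 9. The median difference was -0.10 without AI animal 1, -0.09 without IVF-ET animal 4, -0.25 without IVF-ET animal 5 and -0.20 without the array that stood apart. Between 6 and 11 of the 26 genes were lower at an unadjusted p under 0.05 in the fits that left out 1 animal or 1 array.

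**Figure D3:**
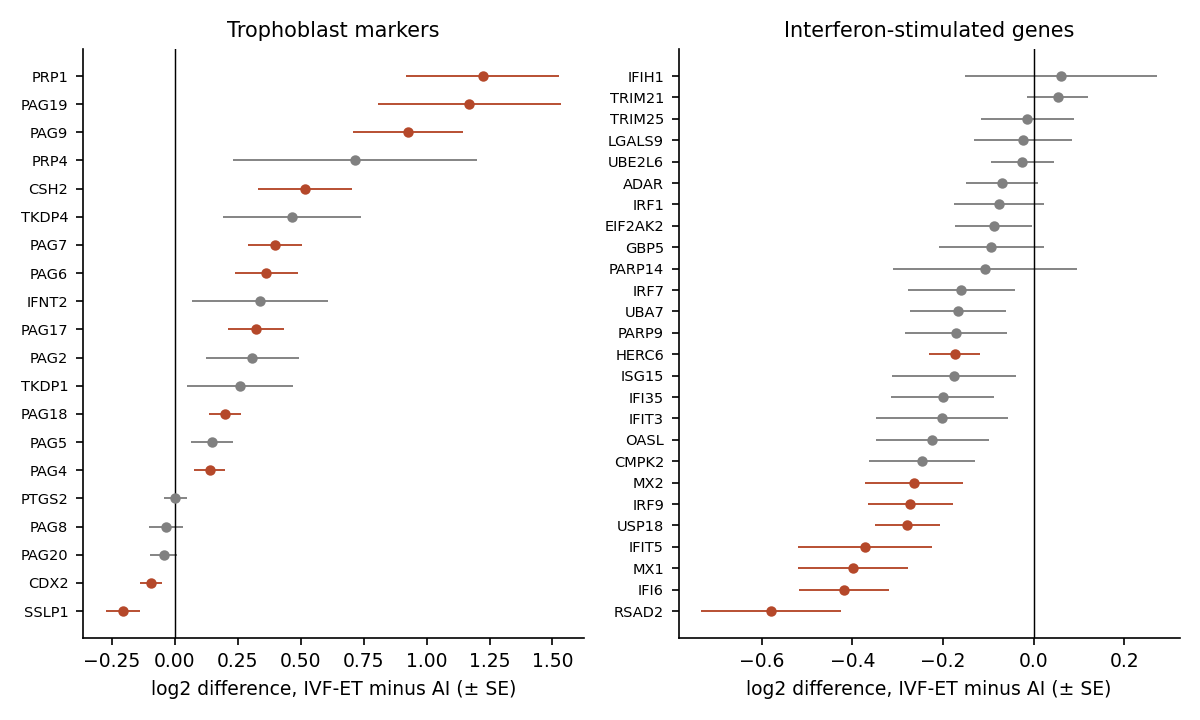
Log2 difference (IVF-ET minus AI, ± SE) of each measured trophoblast marker and interferon-stimulated gene in caruncular tissue; coloured points have an unadjusted p under 0.05 and grey points do not. Most trophoblast markers lie right of 0, up to PRP1 at 1.22, and most interferon-stimulated genes lie left of it, down to RSAD2 at -0.58.

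Markers of other cells were read beside these groups, because a piece of caruncle holds epithelium, stroma, vessels and leukocytes. The 18 epithelial markers had a median of 0.05, with 3 higher and 0 lower at an unadjusted p under 0.05. These were the keratins KRT8 (0.59 ± 0.20, adjusted p = 0.45, limma) and KRT18 (0.49 ± 0.20), which trophoblast also makes, and the splicing regulator ESRP1 (0.21 ± 0.09). KRT8 stood at 0.26, 0.24, 1.14, 0.63 and -0.80 in the IVF-ET animals and at -0.57, -0.45, -0.15, -0.44 and 0.14 in the AI animals, so that IVF-ET animal 5 was again low and AI animal 5 was the highest of its group.

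The median of the epithelial list was 0.10, 0.08, 0.48, 0.03 and -0.40 in the IVF-ET animals and -0.35, -0.15, 0.04, -0.08 and 0.17 in the AI animals, and it lay between -0.04 and 0.16 when 1 animal was left out in turn. The 19 stromal markers had a median of -0.06, with 1 higher and 3 lower. Collagen VI chain COL6A3 (-0.34), dermatopontin DPT (-0.34) and fibulin FBLN1 (-0.23) were the lower ones and S100A4 (0.29) the higher one. The DPT ratios were -1.29 to -0.02 with IVF-ET in Cy5 and -0.22 to 0.54 with IVF-ET in Cy3. In the stromal list IVF-ET animals 3 and 5 were the extremes, at -0.42 and 0.22, the same animals as in the epithelial list with the order turned. The part of the epithelial, stromal and trophoblast makeup in the differences between the groups was not tested.

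The other cell types gave little. Of 18 endothelial markers 2 were higher and 1 lower at an unadjusted p under 0.05, and of 15 smooth muscle markers 1 was higher (TAGLN, 0.32) and 2 lower, among them the calcium pump regulator PLN (-0.19). TAGLN ratios were 0.48 to 0.80 with IVF-ET in Cy5 and -0.38 to 0.58 with IVF-ET in Cy3. Those of PLN were -0.65 to -0.34 and 0.01 to 0.26. The 18 T and NK cell markers had a median of -0.02 with 11 below 0. At an unadjusted p under 0.05, 2 of them were higher, the granule proteins GNLY (0.17) and PRF1 (0.12, and -0.01 with centring within runs of neighbouring probes), and 0 lower, and the 19 macrophage and dendritic cell markers had 0 higher and 1 lower. B cell, neutrophil, red blood cell and adipocyte markers (8, 7, 5 and 5 genes) had none at that level. The array ratios give no absolute levels, so whether any of these markers was at background was not analysed here.

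**Figure D4:**
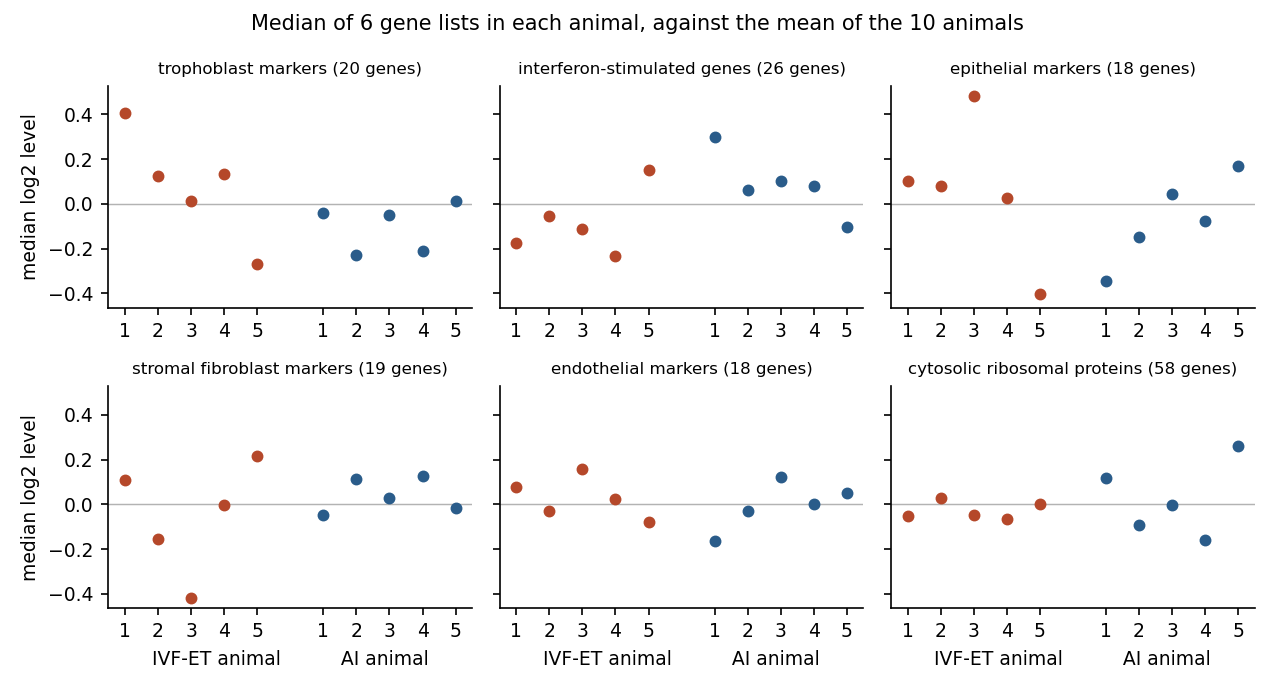
Median log2 level of 6 gene lists in each of the 10 animals, against the mean of the 10 animals. IVF-ET animal 5 is the lowest for trophoblast (-0.27) and epithelial (-0.40) markers and the highest for stromal markers (0.22), and AI animal 1 is the highest for interferon-stimulated genes (0.30).

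The receptors through which the endometrium reads the hormones of pregnancy did not differ beyond their spread. The progesterone receptor PGR stood at -0.12 ± 0.08, the oestrogen receptor ESR1 at -0.06 ± 0.06 and OXTR at -0.05 ± 0.09, with adjusted p of 0.64 to 0.885 (limma). The first PTGS2 probe, for the enzyme that starts prostaglandin synthesis, stood at 0.00 ± 0.05 and a second at -0.28 ± 0.12 (adjusted p = 0.492, limma). PTGES, which makes prostaglandin E2, stood at -0.45 ± 0.16. Counting 1 probe a gene, it was the 1 of 13 prostaglandin genes with an unadjusted p under 0.05. The second PTGS2 probe, outside that count, was also under it (unadjusted p = 0.0317, limma). PGRMC1, a membrane-associated progesterone receptor component, stood at -0.30 ± 0.09.

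SERPINA14, the uterine milk serpin secreted by glands under progesterone, varied more between IVF-ET animals than between the groups. It stood at 1.16, -0.31, -0.45, 2.28 and -1.10 in the IVF-ET animals and at -0.25, -0.30, -0.68, -0.17 and -0.20 in the AI animals. IVF-ET animals 1 and 4 were far above and IVF-ET animal 5 below all AI animals, and the difference was 0.64 ± 0.41 (adjusted p = 0.65, limma).

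Beside ATP5F1C, the 71 measured genes of oxidative phosphorylation had a median of -0.05, 49 lay below 0, and 8 were lower and 5 higher at an unadjusted p under 0.05. ATP5MC3, a ring subunit of the ATP synthase, was lower on 10 of 10 arrays (-0.32 ± 0.08), as was SDHD (-0.29 ± 0.06). ATP5F1D, another subunit of the enzyme, stood at -0.29 ± 0.10 and UQCRC2, a core protein of complex III, at -0.23 ± 0.07. The 35 complex I genes, a grouping made after the values were seen, had 5 higher and 1 lower at that level, but 20 of them lay below 0 with a median of -0.03. Among the higher ones were NDUFA1 at 0.22 ± 0.05, NDUFA2 at 0.23 ± 0.06 and NDUFB11 at 0.30 ± 0.09. The NDUFA1 ratios were 0.30 to 0.69 with IVF-ET in Cy5 and -0.02 to 0.08 with IVF-ET in Cy3.

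ATP5MC3 stood at -0.20, -0.02, -0.55, -0.33 and 0.28 in the IVF-ET animals and at -0.12, 0.39, 0.15, 0.52 and -0.14 in the AI animals. As in ATP5F1C, AI animals 2 and 4 were the highest of their group, and IVF-ET animal 5 was the highest of its own. The same AI animals were highest for FBP1, an enzyme of gluconeogenesis that was lower on 10 of 10 arrays (-0.44 ± 0.10), at -0.40, -0.14, -0.36, -0.22 and 0.01 in IVF-ET and 0.06, 0.66, -0.07, 0.70 and -0.24 in AI. In the citric acid cycle, 0 of 17 genes were higher and 2 lower, the succinyl-CoA ligase subunits SUCLG1 (-0.31 ± 0.09) and SUCLG2 (-0.19 ± 0.08).

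In TGF-beta and BMP signalling, 35 genes were measured, among them TGIF1, and their median was -0.01. ID3, a target of BMP signals that blocks basic helix-loop-helix factors, was higher on 10 of 10 arrays, at 0.05, 0.24, 0.22, 0.05 and 0.15 in the IVF-ET animals and -0.01, 0.03, -0.29, -0.34 and -0.09 in the AI animals. All IVF-ET animals lay above all AI animals for ID3, by a small margin between IVF-ET animals 1 and 4 and AI animal 2, and the difference was 0.28 ± 0.07 (adjusted p = 0.344, limma).

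The other functional groups held 0 called genes. Cytosolic ribosomal proteins had 7 of 58 lower and 2 higher at an unadjusted p under 0.05, with RPSA at -0.28 and RPL35A at -0.30, and their median was -0.03 (0.00 without the array that stood apart). Redox genes had 5 of 41 lower and 2 higher, with the thioredoxins TXN and TXN2 each at -0.30. Of 149 nutrient transporters 12 were higher and 4 lower. Chemokines, cytokines and their receptors had 6 of 60 higher and 3 lower, with CXCL14, a chemokine of epithelium, at 0.50 ± 0.19, and at 0.23 without IVF-ET animal 4. Complement had 2 of 20 lower, the proteases C1S (-0.34) and C1R (-0.21). Secreted uterine proteins had 2 of 23 higher and 2 lower, the latter being the protease inhibitors CST6 (-0.42) and CST3 (-0.23).

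Histones and chromatin modifiers had 5 of 65 higher and 0 lower, Wnt signalling 4 of 30 higher and 2 lower, and splicing factors 4 of 55 higher and 1 lower. Proliferation genes had 1 of 39 in each direction, and collagens and their processing enzymes 1 of 39 higher and 3 lower. Imprinted genes (18), cell junction genes (30) and apoptosis genes (20) had none at an unadjusted p under 0.05. Their medians were -0.03, 0.02 and 0.04.

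Genes with large differences had wide spreads. FABP3, a fatty acid carrier, stood at -0.82, 0.34, -1.48, -0.11 and -0.06 in the IVF-ET animals and at -0.42, 1.09, -0.04, 1.10 and 0.40 in the AI animals. The groups overlapped, and AI animals 2 and 4 were again the highest (-0.85 ± 0.22, adjusted p = 0.352, limma). SRGN, the granule proteoglycan serglycin, stood at 1.04, 1.07, 0.34, 1.02 and -1.20 in IVF-ET and -0.04, -0.41, -0.68, -1.18 and 0.04 in AI. Its difference was 0.90 ± 0.29 (adjusted p = 0.415, limma), with IVF-ET animals 1, 2 and 4 high and IVF-ET animal 5 low, as in PRP1 and PAG19.

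IGFBP3, which binds insulin-like growth factors, stood at 1.04, 0.86, -0.01, 1.33 and -1.09 in the IVF-ET animals and at -0.55, -0.67, -0.60, -0.56 and 0.24 in the AI animals. AI animals 1 to 4 lay between -0.67 and -0.55, AI animal 5 above them, and IVF-ET animal 5 below them all (0.85 ± 0.30, adjusted p = 0.451, limma).

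Several large negative values rest on the single array that stood apart. Of the 28 named genes with a difference below -0.5, 15 lie in its disturbed stretch, where 0 probes had an unadjusted p under 0.05. The mitochondrial aminotransferase GOT2, in the stretch, stood at -0.78 with the array and -0.20 without it. The cytokine IL18 lies outside the stretch but had a ratio of -6.71 on that array. It stood at -0.72 with the array and -0.07 without it. Over the 108 probes of the stretch the median difference was -0.28 with the array and -0.03 without it.

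The same comparison was made in intercaruncular tissue on 10 further arrays, with all 5 IVF-ET animals and 3 of the AI animals in both areas (AI animals 1, 2 and 5 of the caruncular loop). There, 1 of 13816 probes passed the threshold (0.00724%), THBS1. For the probes called in caruncles, the intercaruncular differences were 0.00 ± 0.16 for ATP5F1C, 0.09 ± 0.18 for TGIF1 and -0.60 ± 0.37 for the probe without a symbol. Their differences between the areas did not pass the threshold (adjusted p of 0.558, 0.624 and 0.975, limma).

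IGFBP2, another binding protein of insulin-like growth factors, was the 1 of 13824 probes (0.00723%) whose difference between IVF-ET and AI itself differed between the areas past the threshold, and 1101 had an unadjusted p under 0.05 (7.96%). In caruncles it stood at 0.00, -0.21, -0.18, -0.00 and 0.03 in the IVF-ET animals and at -0.23, 0.40, 0.33, 0.09 and -0.23 in the AI animals, with the groups overlapping fully (-0.15 ± 0.09, adjusted p = 0.649, limma). In intercaruncular tissue the arrays' ratios ran from 0.36 to 1.57, all higher in IVF-ET (0.87 ± 0.12, adjusted p = 0.0528, limma). The caruncular difference minus the intercaruncular one was -1.01 ± 0.15 (adjusted p = 0.0236, limma). It was -1.04 on the 6 pairs of arrays that held the same 2 animals in both areas (adjusted p = 0.369, limma). With 1 animal left out of each area that held it, the difference lay between -1.09 and -0.94. It stayed past the threshold in 1 of those 12 fits, the one without intercaruncular AI animal 1, an animal of that area only.

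THBS1, a matricellular protein that activates TGF-beta and restrains vessel growth, was higher in IVF-ET intercaruncular tissue (0.80 ± 0.10, adjusted p = 0.0488, limma) on 10 of 10 arrays. In caruncles THBS1 stood at 0.10, 0.19, 0.19, 1.23 and -0.60 in the IVF-ET animals and at 0.09, -0.37, -0.34, -0.14 and -0.34 in the AI animals. IVF-ET animals 4 and 5 were the highest and the lowest of all 10, and the difference was 0.44 ± 0.19 (adjusted p = 0.511, limma), or 0.20 without IVF-ET animal 4. The difference between the areas was -0.36 ± 0.21 (adjusted p = 0.681, limma).

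For the 19 trophoblast markers tested there, the intercaruncular median was 0.17, with 6 higher and 1 lower at an unadjusted p under 0.05 (9.3% of all probes there, in either direction), and IVF-ET animals 1 and 5 were again the highest and the lowest, at 0.56 and -0.57. For the interferon-stimulated genes it was 0.12, with 1 higher and 1 lower, and the animals spread far more than in caruncles, with medians from -0.94 to 1.39. RSAD2 stood at 0.70 ± 0.61 there, and its difference between the areas was -1.28 ± 0.70 (adjusted p = 0.657, limma).

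**Figure D5:**
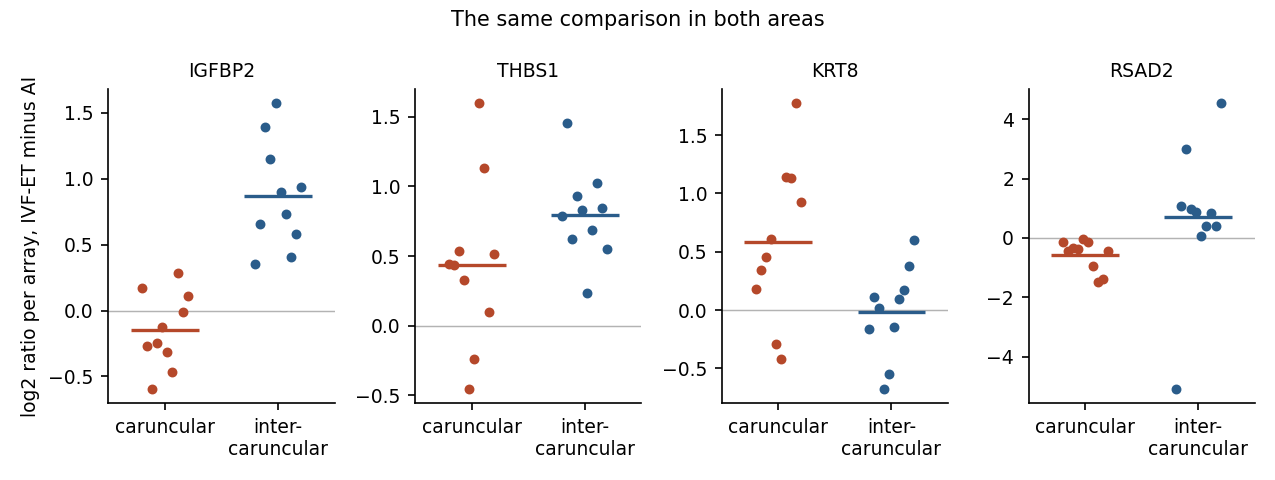
Log2 ratio (IVF-ET minus AI) of IGFBP2, THBS1, KRT8 and RSAD2 on each of the 10 caruncular and the 10 intercaruncular arrays, with a line at the mean. The intercaruncular IGFBP2 ratios lie between 0.36 and 1.57 and the caruncular ones between -0.60 and 0.28.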

How the data were processed

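Total RNA of frozen tissue was copied from oligo-dT primers and coupled to Cy3 or Cy5, per the labels' protocols. The deposited values are log2 ratios, 1 per spot and array, as the authors normalized them; how background was corrected and ratios normalized is not given in the sources used here, and spot intensities were not analysed. The base is 2, since all 331 values below -4 match a ratio rounded to 4 decimals (to within 6e-05). No further normalization was applied.

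Adjacent spots were averaged, from 27648 spots to 13824 probes. The supplied annotation gave 8645 probes 1 symbol, 105 several and 5074 none. Symbols were updated through the RefSeq gene table, and 25 without an entry kept theirs, which left 8073 genes. A gene with several probes is represented by the one with fewest missing values, then by the lowest position. Control spots could not be told from the others and were kept.

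The model (limma 3.58.1, R 4.3.3) had the group difference and a dye effect, and arrays with an animal in common were given 1 correlation by generalised least squares (0.125 in caruncular tissue, 0 in intercaruncular tissue, 0.00433 over both areas, where the areas of an animal were taken as separate). Probes measured on 80% or more of the arrays were tested, with Benjamini-Hochberg adjustment over all probes and a threshold of 0.05. The fit of the group difference and its correlation were tested on simulated data with the layout of the caruncular loop. That test left out the contrast of the areas and the levels per animal. Levels per animal solve the 10 ratios of the loop exactly.

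Genes named by rule were the called ones with the same sign on at least 8 arrays, the smallest p up to 20 in all, the called members of lists, 9 genes of pregnancy (OXTR, PGR, ESR1, PTGS2, SERPINA14, ISG15, MX1, MX2 and OAS1) and those whose difference between areas passed. The comparison, the 49 gene lists and the members were chosen with earlier results of these data known. Lists were described by counts and medians without a test. The alternatives were the correlation, averaging per animal, the dye term, single spots, centring and scaling of arrays, and filters on missing values. Further ones were array weights, robust moderation, the mean of a gene's probes and leaving out animals. Leaving out single arrays, centring within runs of neighbouring probes and leaving animals out of the comparison of areas were added after seeing the data.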

Additional observations from a re-analysis of the deposited data

Results flagged for a closer look

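Among 200 groups of 5 animals, over the genes named, 12 held 1 animal far from the other 4. Chance gives about 1 in 20, so this share is close to that of chance. The flags are listed for a closer look and are no result about these genes or animals. IVF-ET animal 5 stood far below the other IVF-ET animals for PRP1 (-1.388), PAG19 (-1.931) and SLC43A1 (-0.1784). IVF-ET animal 2 stood apart for PLN (-0.2876) and IVF-ET animal 1 for SUCLG2 (-0.5624). Among the AI animals, animal 1 stood apart for COL1A1 (-0.5595) and ATP5F1D (-0.2609), animal 3 for SERPINA14 (-0.6787) and PRF1 (0.1153), animal 4 for PGRMC1 (0.6782), and animal 5 for IRF9 (0.6434) and IGFBP3 (0.2431). For the medians of the cell type lists, 0 of 22 groups held such an animal.

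The array of IVF-ET animal 3 against AI animal 5 had an SD of its log2 ratios of 0.494, against 0.307 for the next widest of the 10 arrays. The IGFBP2 difference between IVF-ET and AI differed between caruncular and intercaruncular tissue by -1.014 (log2), by the test of that difference given above.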

How the results depend on the processing

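With 5 animals a group and 10 ratios, the number of called probes (3 in caruncles) changed with most choices. Of 100 genes and probes named or examined, 95 kept their sign in every alternative, and COL1A1, IFNT2, OXTR, PRF1 and PTGS2 did not. Many were chosen by small p or after their values were seen, and the alternatives use the same arrays. A kept sign therefore adds no support. Among the alternatives 72 of the 100 were rated weaker and 3 stronger, a rating that can turn on the p-value alone. Sizes did move: 8 values of single genes and 23 medians of lists moved by more than the spread between IVF-ET animals, and with the mean of all its probes S100G stood at 0.49 and PSPC1 at -0.06. The count, all lower, was 0 with a correlation of 0.4, with arrays averaged per AI animal, with the first spot only, with arrays scaled to 1 spread and with centring within runs of neighbouring probes, 1 with arrays averaged per IVF-ET animal or the second spot only, and 2 or 3 otherwise. With a correlation of 0.4, probes at an unadjusted p under 0.05 were 443 in place of 1279. Leaving out 1 animal gave 0 to 5 called probes (0 to 1 higher, 0 to 5 lower; 0 in 7 of 10 fits) and leaving out 1 array 0 to 3 (0 in 7 of 10), with 912 to 1538 at an unadjusted p under 0.05. For the difference between areas, the count was 0 on arrays of the same 2 animals, with 671 in place of 1101 at an unadjusted p under 0.05, and 0 to 1 when 1 animal was left out. The cause of these shifts was not tested. Without spot intensities, signal over background could not be weighed. No paired analysis was possible because, within the caruncular loop, each array already sets 2 animals against each other and the replicate numbers only name animals; between the areas, the arrays of the same 2 animals were matched as given above.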
